A study of Mus musculus with 6 samples.

Results

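Genes of lung development and of pulmonary surfactant were examined in mouse embryonic stem cells with and without Dppa2. The 10 genes were Abca3, Sftpb, Sftpc, Sftpd, Aqp5, Fgf10, Fgfr2, Nkx2-1, Foxa1 and Foxf1, and they were taken as every probe whose RefSeq entry carries one of these symbols. This gave 14 probes, 3 each for Abca3 and Fgfr2 and 1 for each other gene, among 18516 named genes on the array. Of the 10 genes, 4 (Abca3, Sftpd, Aqp5 and Fgfr2) were well above background on all 6 arrays, Fgf10 was on 3 and Foxa1 on 1. The other 4, Nkx2-1, Foxf1, Sftpb and Sftpc, were not well above background on any array. A gene was taken as measurable here when a probe was well above background on at least 2 arrays, which held for 5 of the 10.

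Total RNA from 6 embryonic stem cell samples was labelled with Cy3 and hybridised to 6 one-colour Agilent whole mouse genome arrays, 2 in each of 3 groups. Flag-Dppa2 knockout cells (15-2KO_Flag15-2) and mock knockout cells (15-2KO_mock) share the genotype 15-2-/-, which removes Dppa2 (ECAT15-2), and 15-1CT/CT, a conditional targeted allele of its neighbour and paralogue Dppa4 (ECAT15-1) on both chromosomes. Both carried a piggyBac vector driven by the CAG promoter, with Flag-tagged Dppa2 in the first group and empty in the second. Wild-type cells were 15-1+/+ and 15-2+/+ and were not transduced, so that each comparison with wild type also holds the vector and the Dppa4 allele. All cells came from blastocysts of a mixed 129Sv and C57BL6 background and were grown on gelatin in serum with LIF. Samples 1 and 2 of a group came from different mothers, samples of the same number in all 3 groups came from the same mother per the labels, and the mock and Flag-Dppa2 samples of the same number share 1 knockout line, so that the knockout rests on 2 lines.

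Per array, 55.8% to 60.3% of probes passed the scanner's test of being well above background, no spot was saturated, and precision is limited by having 2 arrays a group. Dppa2 was at -0.05 and 0.35 in Flag-Dppa2 cells, at -2.09 and -2.0 in mock cells and at 2.13 and 2.07 in wild-type cells, in log2 signal relative to the 75th percentile of the array, the scale of all levels below. It was called 17.7-fold lower in mock cells than in wild type (limma, adjusted p = 0.00565), and the position of the probe relative to the deletion was not checked. All 9 stem cell markers with a named probe, among them Pou5f1, Sox2 and Esrrb, were well above background on every array. The wild-type arrays resembled each other far more than the knockout pairs did. Of 14183 probes with signals of at least 200 on every array, 433 differed by over 2-fold between the Flag-Dppa2 arrays, 481 between the mock arrays and 5 between the wild-type arrays. The labels give the wild-type samples different mothers, but whether these arrays hold 2 samples or 1 was not settled by the data. Wild-type values are therefore given per array without an SD, and calls are given again with the wild-type pair counted as 1 sample. The p-values measure the spread between these samples. Both Flag-Dppa2 arrays were on a slide of their own, so the slide and the Flag-Dppa2 vector cannot be told apart.

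Pulmonary surfactant is a film of phospholipids and proteins that alveolar type 2 cells assemble in lamellar bodies and secrete to lower surface tension at the air-liquid interface. The lung arises from foregut endoderm that is marked by the transcription factor NKX2-1, with FOXA factors acting in the endoderm, FOXF1 in the surrounding mesenchyme, and mesenchymal FGF10 driving branching through the receptor FGFR2 on the epithelium. DPPA2 is a SAP-domain protein of pluripotent and germ cells that works with DPPA4 at chromatin, in large part at CpG-rich promoters.

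The upstream sequences of the detected genes Abca3 and Aqp5 are shown because both hold many CpG pairs, in capitals. They are the 250 bases before the RefSeq start, read 5′ to 3′ on the gene's strand, in build GRCm38.p6, at chr17:24351773-24352022 for Abca3 and chr15:99590778-99591027 for Aqp5, both on the plus strand.
Abca3: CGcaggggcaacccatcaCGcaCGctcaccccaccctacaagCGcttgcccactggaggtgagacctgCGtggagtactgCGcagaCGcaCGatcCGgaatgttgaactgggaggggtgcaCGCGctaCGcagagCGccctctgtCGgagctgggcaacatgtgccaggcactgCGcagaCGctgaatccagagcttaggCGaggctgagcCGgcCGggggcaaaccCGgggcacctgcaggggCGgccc
Aqp5: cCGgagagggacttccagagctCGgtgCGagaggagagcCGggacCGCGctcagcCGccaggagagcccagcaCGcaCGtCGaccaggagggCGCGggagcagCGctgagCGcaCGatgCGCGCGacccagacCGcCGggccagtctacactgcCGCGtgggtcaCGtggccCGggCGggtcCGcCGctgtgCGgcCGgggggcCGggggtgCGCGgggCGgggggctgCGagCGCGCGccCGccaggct
Abca3 had 21 CpG pairs, a count reached by 16.4% of the 32841 upstream sequences in the table, and Aqp5 had 38, reached by 1.88%, where the median was 6. Sequences were found for 7 of the 10 genes. Among the others, Foxa1 had 21 CpG pairs, Nkx2-1 had 9, Fgf10 had 8, Sftpb had 7 and Fgfr2 had 2. Foxa1, with as many pairs as Abca3, passed background on 1 array, and Fgfr2, with the fewest of the 7, on all 6.

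**Figure D1:**
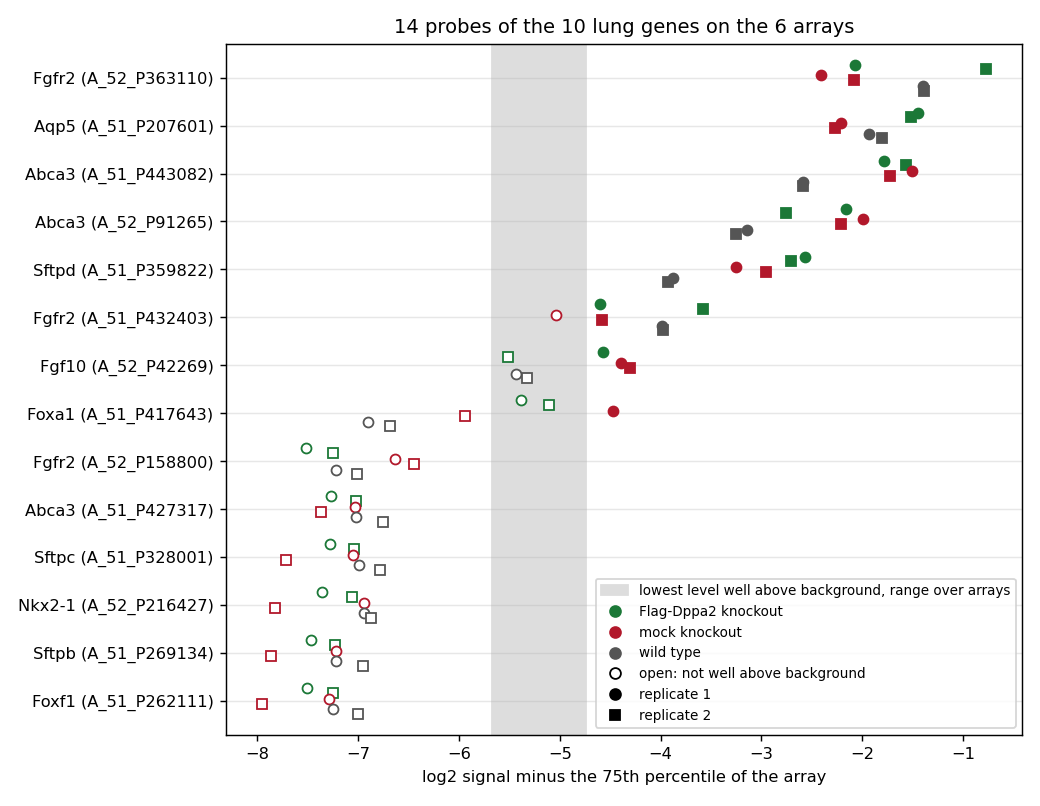
Level of each of the 14 probes on each array (x axis, log2 signal minus the 75th percentile of the array; circles are sample 1, squares sample 2; green is Flag-Dppa2 knockout, red mock knockout, grey wild type; filled points were well above background). The grey band spans the lowest level that was well above background on each array, between -5.67 and -4.74; Nkx2-1, Foxf1, Sftpb, Sftpc and 1 probe each of Abca3 and Fgfr2 lie below it on all 6 arrays.

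Abca3 encodes the lipid transporter of the lamellar body membrane, which loads phospholipid into surfactant stores, and it was the 1 gene of the 10 that was called in a comparison. Its brightest probe (A_51_P443082) had signals of 229 and 242 intensity units in Flag-Dppa2 cells, 283 and 225 in mock cells and 136 and 142 in wild-type cells. Every knockout array was above both wild-type arrays, and the Flag-Dppa2 and mock arrays overlapped. Against wild type, Abca3 rose 1.96-fold in mock cells, at -1.62 ± 0.15 (SD, n = 2) against -2.59 on both wild-type arrays (log2 difference 0.97, SE 0.13, limma adjusted p = 0.0351). It was the only one of the 5 measurable genes called in this comparison, where 6.69% of all 13298 named genes tested were called, 2.63% higher and 4.05% lower. Of the 5, 4 had an unadjusted p under 0.05 (Abca3, Sftpd, Aqp5 and Fgf10), beside 28.6% of all named genes. Fgf10 is counted there against wild-type arrays on which it was not well above background. The genes were chosen with earlier results of these data known, so this count is not a test of the set. When the wild-type pair counted as 1 sample the adjusted p of Abca3 was 0.309, and with the replicate number as a block, which pairs the samples by mother, it was 0.068. It was 0.0939 without mock sample 1, 0.0789 without mock sample 2, 0.293 without wild-type sample 1 and 0.28 without wild-type sample 2. Over all 17 alternatives the adjusted p ran from 0.026 to 0.309, with log2 differences of 0.69 to 1.12.

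In Flag-Dppa2 cells Abca3 stood at -1.68 ± 0.15 (SD, n = 2), against -1.62 ± 0.15 (SD, n = 2) in mock cells, a difference of -0.06 with an SE of 0.13 that was not called (adjusted p = 0.914). Against wild type it was 0.91 higher on the log2 scale in Flag-Dppa2 cells (SE 0.13), without passing the threshold (adjusted p = 0.0731). A second Abca3 probe (A_52_P91265) had signals of 176 and 106 in Flag-Dppa2 cells, 202 and 161 in mock cells and 93.1 and 89.8 in wild-type cells. Its knockout arrays were likewise all above wild type, while its second Flag-Dppa2 array lay nearer to wild type than that of the first probe did. The second probe differed by 1.09 (SE 0.23) between mock and wild type and was not called (adjusted p = 0.0742 in the fit of every probe, where the first probe had 0.0372). The 2 probes had a Pearson correlation of 0.84 over the 6 arrays, where both were read from the same samples. The remaining probe (A_51_P427317) had signals of 4.51 to 7.97 on the 6 arrays and was not well above background on any, so the probes of Abca3 disagree on whether it is detected.

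The genes whose levels most resembled Abca3 over the 6 arrays, out of 13297 compared, were Eif4h (Pearson r = 0.9973), a translation initiation factor gene, Eif2ak2 (0.9965), which encodes the kinase PKR of the interferon response, and Crnde (0.9957), a long noncoding RNA. These correlations describe only 6 arrays, and all genes were read from the same samples. Eif2ak2 was at -0.71 and -0.58 in Flag-Dppa2 cells, -0.42 and -0.61 in mock cells and -1.44 on both wild-type arrays.

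Surfactant protein D, the product of Sftpd, is a collectin that binds microbial sugars and helps to regulate the surfactant pool. Its probe had signals of 133.1 and 110.1 in Flag-Dppa2 cells, 84.8 and 96.0 in mock cells and 55.8 and 56.3 in wild-type cells. The 3 groups did not overlap, with Flag-Dppa2 cells highest and wild type lowest. Sftpd was 1.26 higher in Flag-Dppa2 cells than in wild type on the log2 scale (2.4-fold, SE 0.14), at -2.64 ± 0.10 (SD, n = 2) against -3.88 and -3.93. That difference fell short of the threshold (adjusted p = 0.0564), as did those of 0.80 between mock and wild type (SE 0.14, adjusted p = 0.0519) and of 0.46 between Flag-Dppa2 and mock (SE 0.14, adjusted p = 0.293). The difference between mock and wild type passed in 3 alternatives, with adjusted p-values of 0.0443 after quantile normalization, 0.0445 in the authors' own values and 0.0453 among probes above background on all arrays. Between Flag-Dppa2 cells and wild type it passed with another background correction (adjusted p = 0.0468).

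Sftpb and Sftpc encode the small hydrophobic proteins that spread the surfactant film, and neither was well above background. Sftpb had signals of 4.44 and 4.80 in Flag-Dppa2 cells, 5.39 and 3.20 in mock cells and 5.47 and 6.94 in wild-type cells. Sftpc had 5.06 and 5.46 in Flag-Dppa2 cells, 6.07 and 3.52 in mock cells and 6.45 and 7.81 in wild-type cells. The lowest signal that was well above background lay between 14.6 and 31.9 on the 6 arrays, so both genes have only an upper bound in each group and no fold is given.

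The upstream sequence of Sftpb is shown as that of a lung-restricted gene that was not detected. It covers chr6:72304360-72304609 of GRCm38.p6, plus strand, 5′ to 3′, with matches to the core motif CTCAAG of NKX2 factors and to the FOX motif TGTTTGC in capitals (both strands searched; no matches overlap).
Sftpb: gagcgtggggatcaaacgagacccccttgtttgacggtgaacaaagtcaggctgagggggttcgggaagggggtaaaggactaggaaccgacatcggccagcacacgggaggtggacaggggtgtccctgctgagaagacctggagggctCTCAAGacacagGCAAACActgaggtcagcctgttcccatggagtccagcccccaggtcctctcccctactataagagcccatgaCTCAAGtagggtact
CTCAAG matched at 2 places and TGTTTGC at 1, on the other strand. Of all 32841 upstream sequences, 13.3% hold CTCAAG and 4.3% hold TGTTTGC, and Sftpb was the 1 gene with CTCAAG among the 7 that were searched. The related FOX motif TGTTTAC, present in 3.17% of all, was found once each at Fgf10 and Foxa1. TATAAA, present in 12.4%, was at none of the 7. These matches describe letters only.

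Aqp5 encodes a water channel of alveolar type 1 cells and of secretory glands. Its probe had signals of 288.1 and 250.5 in Flag-Dppa2 cells, 175 and 154 in mock cells and 215 and 245 in wild-type cells. Mock cells were lowest and Flag-Dppa2 cells highest, with no overlap between any of the 3 groups. In Flag-Dppa2 cells Aqp5 was at -1.49 ± 0.05 (SD, n = 2), against -2.24 ± 0.05 (SD, n = 2) in mock cells, a log2 difference of 0.75 in both knockout lines (1.68-fold, SE 0.10, adjusted p = 0.0798). The difference was not called, and in the 17 alternatives its adjusted p ran from 0.0884 to 0.349. Against wild type, Aqp5 differed by -0.37 in mock cells (SE 0.10, adjusted p = 0.105) and by 0.38 in Flag-Dppa2 cells (SE 0.10, adjusted p = 0.143).

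Fgf10 is the ligand that the distal lung mesenchyme makes to draw out the epithelial buds. Its 1 probe is printed in 10 spots, and it had mean signals of 33.5 and 16.4 in Flag-Dppa2 cells, 39.1 and 38.1 in mock cells and 20.0 and 23.9 in wild-type cells. Both mock arrays and Flag-Dppa2 array 1 were well above background, and the other 3 arrays, both of wild type among them, were not. Of the spots used, 10 of 10 and 1 of 9 were well above background in Flag-Dppa2 cells, 7 of 10 and 10 of 10 in mock cells, and 3 of 10 and 2 of 10 in wild-type cells. Between mock and wild type, Fgf10 was not called (limma, adjusted p = 0.142), with fitted means of -4.34 and -5.38 (log2 difference 1.04, SE 0.33). The mock mean lay 1.42-fold above the lowest level that is well above background on the wild-type arrays. Folds given below as at least a value are set against that lowest level in the same way, and hold for this processing only. With another background correction, which adds an offset of 50 to every signal, the Fgf10 difference was 0.34. In a fit of only mock and wild-type arrays, all on 1 slide, Fgf10 passed (adjusted p = 0.0382). Fgf10 entered the test through the knockout arrays on which it was bright.

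The Flag-Dppa2 differences of Fgf10 rest on arrays that were not well above background. Only in line 1 were both knockout arrays above it, with a Flag-Dppa2 minus mock difference of -0.18. The fitted means differed by -0.70 between Flag-Dppa2 and mock (SE 0.33, adjusted p = 0.477) and by 0.34 between Flag-Dppa2 and wild type (SE 0.33, adjusted p = 0.6). Neither was called, and no direction is read from them.

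**Figure D2:**
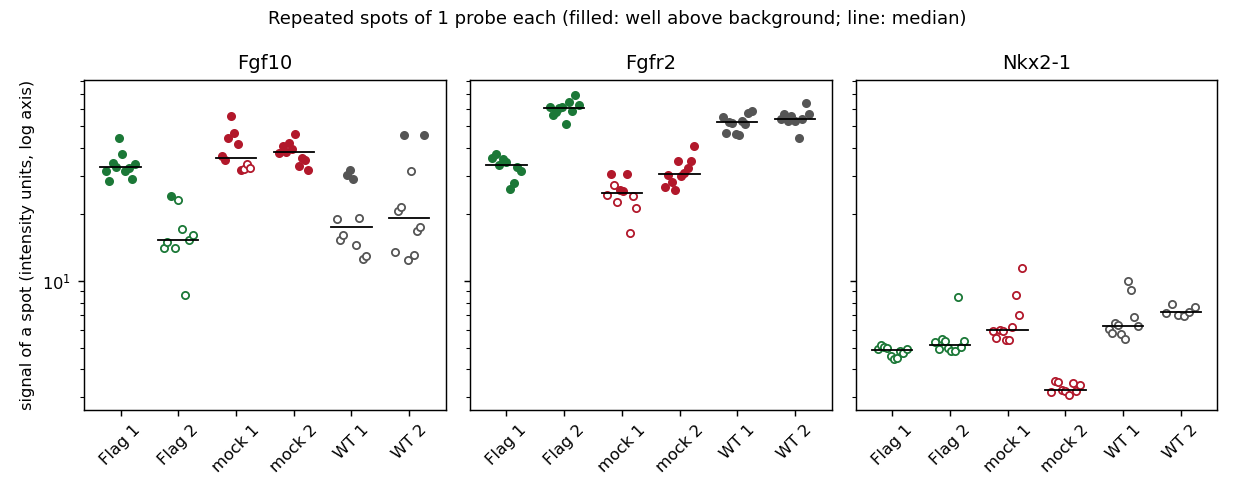
Signals of single spots of the probes printed 10 times, for Fgf10, Fgfr2 and Nkx2-1 (y axis, intensity units, log scale; columns are the 2 Flag-Dppa2, 2 mock and 2 wild-type arrays; filled spots were well above background, the line is the median). Fgf10 medians were 32.7 and 15.3 in Flag-Dppa2 cells, 35.9 and 38.2 in mock cells and 17.6 and 19.2 in wild-type cells, and no Nkx2-1 spot was well above background on any array.

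Fgfr2 encodes the FGF receptor whose epithelial isoform binds FGF10. Its brightest probe (A_52_P363110) had signals of 187.8 and 422.5 in Flag-Dppa2 cells, 151.4 and 176 in mock cells and 309.7 and 326 in wild-type cells. Mock cells were below wild type without overlap, while the Flag-Dppa2 samples lay on either side of wild type. In mock cells Fgfr2 was at -2.25 ± 0.24 (SD, n = 2), against -1.40 and -1.39 in wild type, a difference of -0.85 on the log2 scale (SE 0.46) that was not called (adjusted p = 0.316). Flag-Dppa2 minus mock was 0.34 in line 1 and 1.31 in line 2 (mean 0.83, SE 0.46, adjusted p = 0.54). Against wild type the Flag-Dppa2 mean differed by -0.02 (SE 0.46, adjusted p = 0.985), from -0.67 in sample 1 and 0.63 in sample 2.

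A second Fgfr2 probe (A_51_P432403), printed in 10 spots, had median spot signals of 33.4 and 60.8 in Flag-Dppa2 cells, 25 and 30.6 in mock cells and 52.3 and 54.0 in wild-type cells. It was well above background on every array but that of mock sample 1, and the order of the arrays was close to that of the first probe, with a Pearson correlation of 0.99 over the 6 arrays. Its mock minus wild-type difference was -0.83 (SE 0.38, adjusted p = 0.26). The remaining probe (A_52_P158800) had signals of 4.29 to 8.50 and was not well above background on any array. The files do not say which Fgfr2 isoform a probe reads.

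The transcription factors of the set were at or under background. Nkx2-1, which specifies lung and thyroid endoderm and drives surfactant genes, had signals of 4.81 and 5.45 in Flag-Dppa2 cells, 6.75 and 3.30 in mock cells and 6.81 and 7.33 in wild-type cells. None of its spots was well above background on any of the 6 arrays. Foxf1, a factor of the lung mesenchyme and its vessels, had signals of 4.32 and 4.72 in Flag-Dppa2 cells, 5.13 and 3.01 in mock cells and 5.37 and 6.69 in wild-type cells, likewise without an array above background.

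Foxa1, a pioneer factor of the endoderm, was the exception. Its probe had signals of 18.9 and 20.8 in Flag-Dppa2 cells, 36.4 and 12.1 in mock cells and 6.86 and 8.38 in wild-type cells. All 4 knockout arrays were above both wild-type arrays, but only mock sample 1 was well above background, so Foxa1 was not tested. With the scanner's weaker flag, positive and significant against the local background, Foxa1 passed on all 4 knockout arrays and on neither wild-type array. The mock mean lay under the lowest level that is well above background in wild type, and no fold is given.

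**Figure D3:**
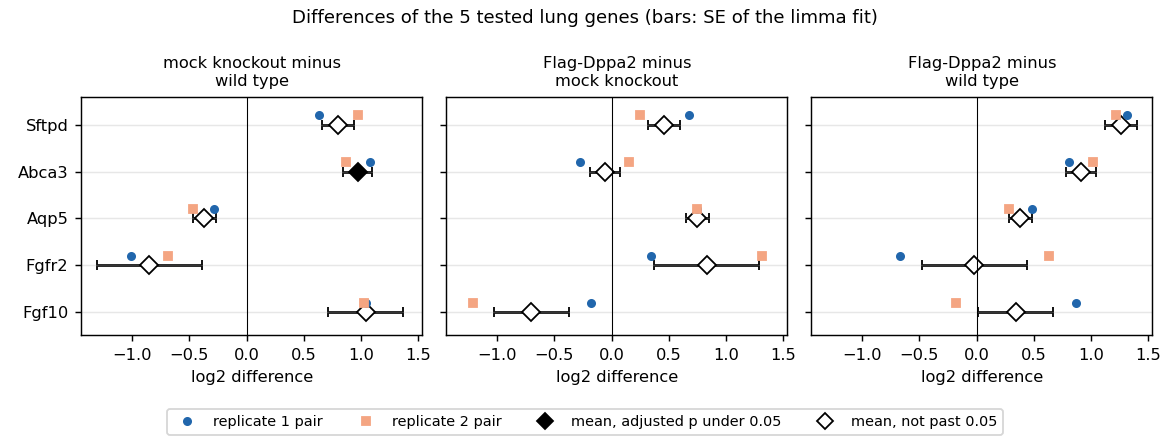
Log2 differences of the 5 measurable genes in the 3 comparisons (x axis; circles are sample 1 pairs, squares sample 2 pairs, diamonds the mean of the limma fit with its SE as bars; the filled diamond passed an adjusted p of 0.05). Abca3 between mock and wild type, at 0.97, is the 1 filled point, and Sftpd lies above 0 for both pairs in every comparison; the Fgf10 points include arrays that were not well above background.

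Set side by side, the 3 comparisons gave the 5 genes unlike patterns. Between mock and wild type the arrays of the groups did not overlap for any of the 5, which held for 67.7% of all named genes tested. For Fgf10 this rests on wild-type arrays that were not well above background. Between Flag-Dppa2 and mock, 0 of the 5 were called, 2 had an unadjusted p under 0.05 (Aqp5 and Sftpd), and 4 did not overlap, all but Abca3, with Fgf10 among them through an array that was not well above background. Of all named genes, 0.88% were called there, 0.85% higher and 0.0301% lower, 13.8% had an unadjusted p under 0.05 and 37.7% did not overlap. Between Flag-Dppa2 and wild type, 0 of the 5 were called, 3 had an unadjusted p under 0.05 (Sftpd, Abca3 and Aqp5), and the same 3 did not overlap, where 0.519% of all named genes were called, 0.143% higher and 0.376% lower, 21.4% had such an unadjusted p and 61.7% did not overlap. The comparisons share arrays, so they are not independent of each other.

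Related genes were read from 5 lists. These lists were chosen with earlier results of these data known, so their shares of called genes are not a test of the lists. Of 26 genes of FGF10 and FGFR2 signalling, 19 were tested, and 2 rose in mock cells against wild type while none fell, beside 2.63% of all named genes called higher and 4.05% called lower. Etv4, an ETS factor and target of FGF signalling, was at 2.72 and 2.39 in Flag-Dppa2 cells, 2.88 and 2.74 in mock cells and 1.34 and 1.39 in wild-type cells (mock minus wild type 1.45, SE 0.15, adjusted p = 0.0211). Bmp4, a growth factor of the distal lung bud and of early mesoderm, was at 1.22 and 1.77 in Flag-Dppa2 cells, 1.62 and 2.32 in mock cells and -0.12 and -0.11 in wild-type cells (mock minus wild type 2.08, SE 0.31, adjusted p = 0.0413). The median difference of the 19 was 0.11, beside 0.03 over all named genes, and 0 of them were called in the other comparisons. Dusp6 and Ptpn11, a phosphatase that limits ERK signalling and the phosphatase SHP2, have bright probes, with mean levels of 4.75 and 4.65 over the 6 arrays. The lung ligands and factors Fgf7, Fgf9, Shh, Tbx4 and Tbx5 were not well above background on any array.

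Of 25 regulators of lung endoderm, 20 were tested, and 3 rose in mock cells against wild type while none fell, beside the same 2.63% higher and 4.05% lower of all named genes. Irx2, a homeobox gene of lung epithelium, was at -1.05 and -1.09 in Flag-Dppa2 cells, -0.10 and -0.78 in mock cells and -2.42 and -2.65 in wild-type cells (mock minus wild type 2.09, SE 0.25, adjusted p = 0.0289). Foxp4, a forkhead repressor of airway fates, had a mock minus wild-type difference of 1.36 (SE 0.20, adjusted p = 0.0391), and Foxa3, a paralogue of Foxa1, one of 0.99 (SE 0.10, adjusted p = 0.0219). The median of the 20 was 0.21 between mock and wild type, 0.12 between Flag-Dppa2 and mock and 0.68 between Flag-Dppa2 and wild type, beside 0.03, 0.00 and 0.03 over all named genes, with 0 called in the last 2 comparisons. Ctnnb1 and Sox2, whose probes are bright, had mean levels of 4.24 and 3.85 over the 6 arrays.

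Of 20 genes of surfactant and lamellar bodies, 18 had a named probe and 13 were tested. Ctsh, a lysosomal protease that trims surfactant protein precursors, was at -0.51 and -1.01 in Flag-Dppa2 cells, -7.24 and -6.32 in mock cells and -1.67 and -1.45 in wild-type cells. The Flag-Dppa2 and wild-type arrays were well above background and the mock arrays were not. Ctsh fell at least 13.8-fold in mock cells against wild type (limma, adjusted p = 0.0109) and was at least 24.1-fold higher in Flag-Dppa2 than in mock cells (adjusted p = 0.0204). Over the alternatives these log2 differences were as small as -2.17 and 2.84, which are smaller changes than those bounds. The second call was lost with the replicate number as a block (adjusted p = 0.0618), on the arrays of those 2 groups alone (0.147), and without mock sample 1 (0.0516), Flag-Dppa2 sample 1 (0.0949) or Flag-Dppa2 sample 2 (0.0768). Atp11a, a phospholipid flippase, was at 0.95 and 1.14 in Flag-Dppa2 cells, 1.19 and 1.39 in mock cells and 0.11 and 0.13 in wild-type cells (mock minus wild type 1.17, SE 0.12, adjusted p = 0.0225). These were the 2 of the 13 called in mock cells against wild type, 1 in each direction beside 2.63% higher and 4.05% lower of all named genes, and Ctsh was the 1 called between Flag-Dppa2 and mock, where 0.88% of all were. The medians of the 13 were 0.12, -0.23 and 0.16 for mock against wild type, Flag-Dppa2 against mock and Flag-Dppa2 against wild type. Between Flag-Dppa2 and wild type 0 were called, and Fasn, the fatty acid synthase gene, with a bright probe, had a mean level of 6.68 over the 6 arrays.

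Abca1, the cholesterol and phospholipid exporter, was the 1 called among 6 tested ABCA transporters besides Abca3, of 15 listed, beside 6.69% of all named genes between mock and wild type and 0.519% between Flag-Dppa2 and wild type. It was at -0.86 and -0.38 in Flag-Dppa2 cells, 0.02 and 0.01 in mock cells and -3.43 and -3.44 in wild-type cells. It rose in mock cells against wild type by 3.45 (SE 0.18, adjusted p = 0.00783) and in Flag-Dppa2 cells against wild type by 2.82 (adjusted p = 0.0312), and did not pass between Flag-Dppa2 and mock (-0.64, adjusted p = 0.271), a comparison in which Abca7 and Abca8a, at mean levels of 2.30 and -1.17, were not called either. The medians of the 6 were 0.47, -0.24 and 0.42 in the same order of comparisons. Of 10 aquaporins besides Aqp5, 5 were tested and 0 were called in any comparison, with medians of 0.09, 0.20 and 0.40. Aqp3 and Aqp11 had mean levels of 2.51 and -1.50.

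None of the genes named from these lists, nor any other named gene, was called in any comparison by limma when the wild-type pair counted as 1 sample, and the same held without either wild-type array. At an unadjusted p under 0.05 the fit with the pair as 1 sample held 1693 named genes between mock and wild type, 1069 between Flag-Dppa2 and mock and 1049 between Flag-Dppa2 and wild type. Leaving out a mock array, sample 1 or sample 2, ended the calls between mock and wild type of Etv4 (adjusted p = 0.0754 and 0.0689), Bmp4 (0.062 and 0.0977), Foxp4 (0.113 and 0.12), Foxa3 (0.0653 and 0.0546) and Atp11a (0.0602 and 0.0733), but not those of Irx2, Ctsh and Abca1. Leaving out either Flag-Dppa2 array ended those of Bmp4 (0.0582) and Irx2 (0.058). Abca1 between Flag-Dppa2 and wild type did not pass without any 1 of the 6 arrays (adjusted p = 0.0806 to 0.353).

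**Figure D4:**
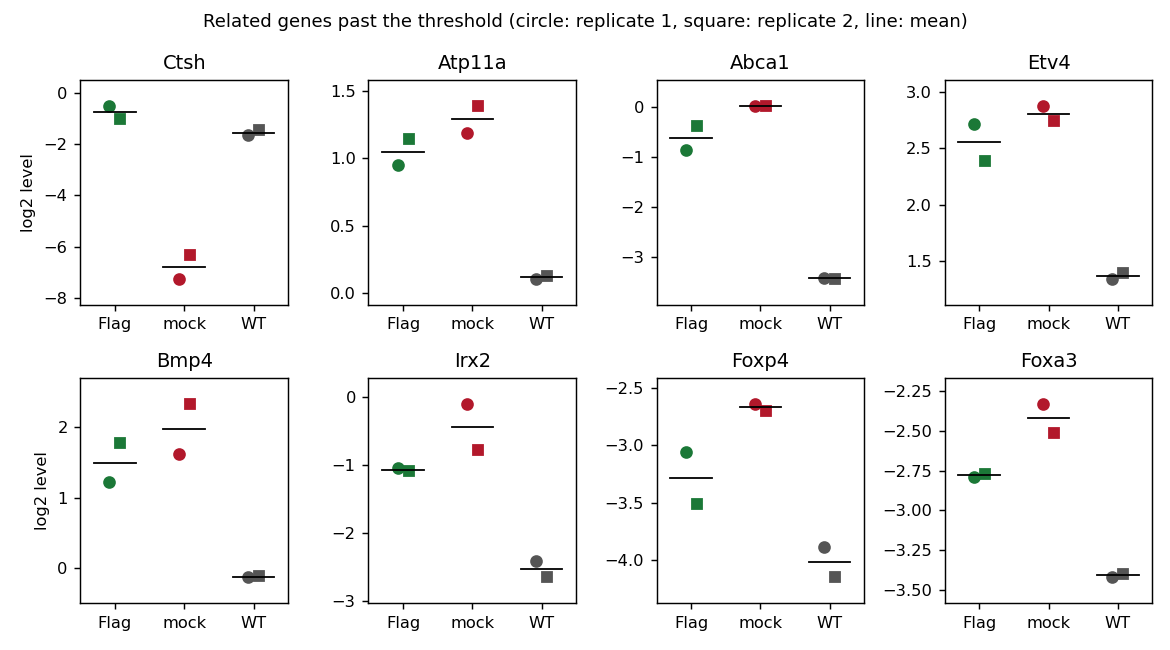
Levels of 8 genes from the related lists that passed the threshold in a comparison (y axis, log2 signal minus the 75th percentile of the array; columns are Flag-Dppa2 knockout, mock knockout and wild type; circles are sample 1, squares sample 2, the line is the mean of 2). Ctsh was below background in mock cells at -7.24 and -6.32, and the other 7 genes were higher in mock cells than in wild type.

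No list of lung cell markers was detected in full. Of 8 alveolar type 2 markers, Sftpd, Abca3, Lamp3 and Napsa were above background on all 6 arrays and Sftpa1, Sftpb, Sftpc and Slc34a2 on none. Of 5 alveolar type 1 markers with a probe, Ager was above background on none and the other 4, Aqp5 among them, on all. Of 3 club cell markers with a probe, Scgb1a1, the defining gene, was above background on none, Cyp2f2 on 1 and Scgb3a1 on all 6. Of 4 markers of ciliated cells, Foxj1 and Tubb4b were above background on all 6 arrays and Ccdc39 and Dnah5 on none. Primitive endoderm markers, of which 5 of 8 were above background on all 6 arrays, had summed signals of 1412 to 2197 in Flag-Dppa2 cells, 1348 to 1381 in mock cells and 1065 to 1084 in wild-type cells. That sum ran in the same direction as Sftpd, but single members did not all do so, and 0 of the 8 were called. The part of the list in the Sftpd result was not tested. Lama1, its brightest member, had means of -0.27 in Flag-Dppa2 cells, 0.02 in mock cells and -0.89 in wild-type cells. Gata4 was at -3.82 and -3.33 in Flag-Dppa2 cells and -3.25 and -3.84 in mock cells, well above background on each. In wild-type cells it was at -4.86 and -5.18 and not well above background. Pdgfra was above background on 1 array of each knockout group and on no wild-type array. Dab2 was at -1.7 and -2.8 in Flag-Dppa2 cells, -4.94 and -4.58 in mock cells and -2.51 and -2.59 in wild-type cells. Gata6 differed between the lines, at -2.14 and -5.33 in mock cells. Foxa2, a marker of that list, was at -2.0 and -1.93 in Flag-Dppa2 cells, -3.13 and -3.53 in mock cells and -3.11 on both wild-type arrays, and was not called in any comparison.

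Fibroblast and feeder markers had summed signals of 12220 to 12402 in Flag-Dppa2 cells, 8720 to 10517 in mock cells and 12034 to 12738 in wild-type cells, with 6 of 12 above background on all arrays and Lum on none. Single members of the list moved far more than the sum. Of 11 tested, 3 were called lower in mock cells than in wild type and the same 3 higher in Flag-Dppa2 than in mock cells, and they are named after their values were seen. Mmp2, a matrix metalloproteinase gene, was at -0.68 and -0.75 in Flag-Dppa2 cells, -4.37 and -4.87 in mock cells and -0.33 and -0.36 in wild-type cells. It was 19.4-fold lower in mock cells than in wild type (limma, adjusted p = 0.00645). In mock cells Loxl1 and Fbn1, genes of elastic fibres, were not well above background, and they were at least 8.59-fold and 3.53-fold lower there than in wild type (limma, adjusted p = 0.00565 and 0.00899). Over the alternatives these log2 differences were as small as -1.52 for Loxl1 and -0.91 for Fbn1, smaller falls than the bounds. Flag-Dppa2 minus mock was as small as 0.54 for Loxl1 and 0.68 for Fbn1, likewise short of the bounds given next. In Flag-Dppa2 cells all 3 were higher than in mock cells, Mmp2 15-fold, Loxl1 at least 2.24-fold and Fbn1 at least 2.05-fold (adjusted p = 0.0166, 0.0264 and 0.029), calls that were lost with the replicate block (0.0573, 0.0839 and 0.0666) and without Flag-Dppa2 sample 1 (0.0762, 0.108 and 0.0725) or Flag-Dppa2 sample 2 (0.0714, 0.0994 and 0.0614). Without mock sample 1 those of Loxl1 (0.0691) and Fbn1 (0.105) were lost, and without mock sample 2 that of Fbn1 (0.089). Loxl1 was also called lower in Flag-Dppa2 cells than in wild type (3.83-fold, adjusted p = 0.0473), which did not pass with the block (0.106) or without any 1 of the 6 arrays (0.0806 to 0.388). Acta2, a smooth muscle actin gene, was the brightest of the list and weighs most in the summed signals. Its means were 3.76 in Flag-Dppa2 cells, 3.33 in mock cells and 3.08 in wild-type cells. It was not called in either of the first 2 comparisons (limma, adjusted p = 0.309 and 0.287). Col1a1 and Col1a2, collagen genes of the list, were lower than wild type on all knockout arrays and were not called. Col1a1 was at -1.56 and -3.87 in Flag-Dppa2 cells, -1.69 and -3.54 in mock cells and 0.78 and 0.75 in wild-type cells. The summed signals of Flag-Dppa2 cells were near those of wild type with Acta2 above wild type and Col1a1 and Col1a2 below it. The Aqp5 and Fgfr2 signals were lowest in mock cells, as the sum was, but Acta2 itself was lowest in wild type. The part of these markers in the Aqp5 and Fgfr2 results was not tested. Endothelial markers had summed signals of 482 to 508 in Flag-Dppa2 cells, 296 to 301 in mock cells and 713 to 774 in wild-type cells, with Cdh5 and Emcn on none of the arrays, and Tek, a receptor gene of that list, was called 5.02-fold lower in mock cells than in wild type (adjusted p = 0.0159). Blood markers had summed signals of 444 to 590 in Flag-Dppa2 cells, 798 to 963 in mock cells and 325 to 338 in wild-type cells, where the defining gene Ptprc was above background on no array and Laptm5 on all. Laptm5, a lysosomal membrane gene of blood cells and the 1 of the list that was tested, was called 2.91-fold higher in mock cells than in wild type (adjusted p = 0.0163), a call lost without mock sample 1 (0.0622) or mock sample 2 (0.0565). That sum was above wild type in both knockout groups, as the Abca3 signal was, and its part in the Abca3 result was not tested. In RNA of whole cultures, fewer cells that make a transcript and less transcript per cell cannot be told apart.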

How the data were processed

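The deposited intensity values are, per the file headers, the processed signals of Agilent Feature Extraction 10.7.3.1 (protocol GE1_107_Sep09), background-corrected within an array and not scaled between arrays. The deposited log2 values are, per the labels' design text, from the authors' GeneSpring GX11 analysis. Their unstated scale and centring were read off the values (column medians all near 5.84, no centring of genes), and they served as 1 alternative.

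The files hold no gene names, so 27143 of 41059 probes were named through the RefSeq accession and a RefSeq table of GRCm38, used for names, neighbours and upstream sequences. Spots with outlier flags were left out, and log2 signals of the other spots were averaged. A probe was well above background where at least 0.5 of its used spots were. Each array's log2 signals were set relative to its own 75th percentile. Probes above background on at least 2 arrays were tested, the brightest per gene, which gave 13298 genes and 5466 unnamed probes. All 6 arrays went into 1 limma fit (limma 3.58.1, R 4.3.3, 3 residual degrees of freedom, lmFit and eBayes, tested on simulated data), with 2-sided tests adjusted by Benjamini and Hochberg's method over 18764 features and a threshold of 0.05.

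The genes and lists were chosen with earlier results of these data known. From the lists, those called are named, or, where none was, the 2 brightest (1 is not reported here); for likeness, the 3 genes with the highest Pearson correlation. Same-numbered mock and Flag-Dppa2 samples are 1 line, per the labels, and their deviations from the group means correlated at 0.59 over 18764 features, against -0.04 for mock and wild type and 0.01 for Flag-Dppa2 and wild type. Alternatives were normexp (on median signals, since the files hold no mean signals), quantile normalization, other filters, every probe, other sample sets, the block and an intensity trend. The normexp alternative added an offset of 50 to every signal, which narrows the log2 differences of dim probes. Figures were drawn with Python 3.11.15 and matplotlib 3.10.9.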

Additional observations from a re-analysis of the deposited data

Results flagged for a closer look

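For Abca3 the Flag-Dppa2 minus mock difference had opposite signs in the 2 knockout lines, each from 1 array per group. The mean difference of -0.06 (SE 0.13) was not called (limma, adjusted p = 0.914). The log2 difference of Flag-Dppa2 minus mock was -0.28 in line 1 and 0.15 in line 2, and the difference between the lines was not tested. The second Abca3 probe had -0.17 in line 1 and -0.56 in line 2, so that the probes differ in sign for line 2.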

How the results depend on the processing

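The members' counts depended on the setting. Some alternatives are the same fit and do not count as separate checks. For mock against wild type these are the 2 groups alone, slide 1 alone and either Flag-Dppa2 array left out. For Flag-Dppa2 against mock they are the 2 groups alone, wild type averaged and either wild-type array left out. For Flag-Dppa2 against wild type they are the 2 groups alone and either mock array left out. For mock against wild type, 1 of the 5 genes was called, against 2 after quantile normalization, in the authors' values, with the filter on all 6 arrays, with only the 2 groups compared and on slide 1 alone, and 0 without a filter, with the replicate block or with the wild-type arrays averaged (2 of the 5 at an unadjusted p under 0.05 there). Leaving out single arrays gave 0 to 2. The 889 genes called became 1359 with normexp, 305 without a filter, 391 with the replicate block, 0 with wild type averaged (1693 unadjusted) and 1469 with an intensity trend, and 0 to 707 without single arrays, 0 without either wild-type array. The split of higher and lower calls was 350 and 539, against 638 and 721 with normexp, 457 and 426 with the filter on all 6 arrays, 709 and 760 with the trend, 209 and 498 on the 2 groups alone, 72 and 319 with the block and 25 and 280 without a filter.

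For Flag-Dppa2 against mock, 0 of the 5 genes were called in any of the 17 alternatives, and the 117 genes became 45 with normexp, 37 without a filter, 25 with the filter on all 6 arrays, 3 with the replicate block (1955 unadjusted), 0 with only the 2 groups, with wild type averaged (1069 unadjusted in each) or with knockout arrays and the block (2597 unadjusted, an alternative added after seeing the data), and 0 to 93 without single arrays. For Flag-Dppa2 against wild type, the 0 called members became 1, Sftpd, with normexp, and the 69 genes became 307 with normexp, 156 after quantile normalization and in the authors' values, 5 without a filter, 18 with the filter on all 6 arrays, 0 with the replicate block (3028 unadjusted), 3 with only the 2 groups, 0 with wild type averaged (1049 unadjusted) and 246 with the trend, and 0 to 3 without single arrays. The split there was 19 and 50, against 151 and 156 with normexp, 140 and 106 with the trend and 62 and 94 after quantile normalization.

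Directions turned for Abca3 between Flag-Dppa2 and mock (0.05 without mock sample 1 and without Flag-Dppa2 sample 1, from -0.17 to 0.05 over single arrays left out), for Fgfr2 between Flag-Dppa2 and wild type (0.02 after quantile normalization and in the authors' values, 0.63 without Flag-Dppa2 sample 1, from -0.67 to 0.63 over single arrays) and for Fgf10 in the same comparison (-0.13 without Flag-Dppa2 sample 1, up to 0.81 without Flag-Dppa2 sample 2, all of them differences against wild-type arrays that were not well above background). The causes were not tested. Beyond Abca3 and Ctsh, the block ended the calls of Foxa3 (adjusted p = 0.0523), of Abca1 and Dppa2 between Flag-Dppa2 and wild type (0.0834 and 0.0924) and of Dppa2 between Flag-Dppa2 and mock (0.0666), and that of Ccnf given with its neighbours. Among the called genes of the marker lists it ended those of Mmp2, Loxl1 and Fbn1 between Flag-Dppa2 and mock and of Loxl1 between Flag-Dppa2 and wild type. It ended no other call of the genes given here from the 10, the 5 lists, the neighbours, the marker lists and Dppa2. Of the 8 calls named from the lists between mock and wild type, 6 were lost without a filter and those of Ctsh and Abca1 were not. The number of measurable genes, 5, was 6 with the weaker background flag or 1 array required and 4 with all 6 required. A fit within 1 slide was possible only for mock against wild type. Signal near background limits what can be said of Nkx2-1, Foxf1, Foxa1, Sftpb, Sftpc and Fgf10.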

Other observations

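Genes beside the measurable lung genes were read as the 3 nearest on each side that have a named probe. Ccnf, which encodes cyclin F and lies near Abca3 on chromosome 17, was at 2.77 and 2.73 in Flag-Dppa2 cells, 2.86 and 2.99 in mock cells and 2.16 and 2.25 in wild-type cells. It was called 0.72 higher in mock cells than in wild type on the log2 scale (SE 0.10, limma adjusted p = 0.037), a call lost with the replicate block (adjusted p = 0.0654) on the 2 groups alone (0.058), without mock sample 1 (0.0832) and without mock sample 2 (0.111). Abca17, the transporter gene next to Abca3, was not well above background on any array. Emb, the embigin gene near Fgf10 on chromosome 13, was at 4.06 and 3.98 in Flag-Dppa2 cells, 3.55 and 3.4 in mock cells and 4.53 and 4.47 in wild-type cells. Unlike the Fgf10 signal, Emb was called lower in mock cells than in wild type, with a difference of -1.02 (SE 0.11, limma adjusted p = 0.0215), a call lost without mock sample 1 (0.0587) or mock sample 2 (0.0706). Both calls were lost without either wild-type array. Of the 6 genes around Sftpd on chromosome 14, Mat1a, Sftpa1, Mbl1, Ear1 and Ear10 were above background on no array and 1700001F09Rik on 1. Aqp2, the neighbour of Aqp5, was above background on all 6 arrays at levels of -3.34 and -3.20 in Flag-Dppa2 cells, -3.05 and -2.83 in mock cells and -3.37 and -3.27 in wild-type cells, and was not called in any comparison.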
